A study of Mus musculus with 24 samples.

Results

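The genes described here are 10 heat shock genes, *Hspa8*, *Hspa1a*, *Hspa1b*, *Hsph1*, *Dnajb1*, *Hsp90aa1*, *Hsp90ab1*, *Hspb1*, *Bag3* and *Hspe1*. They were taken by gene symbol from a table of 54658 genes, by a rule that uses no measured value. RNA was sequenced in 24 libraries of mouse embryos on a C57BL/6J background, in 8 groups of 3. The mutants were *Cep135*(Δ8/Δ8), homozygous for a germline deletion of 8 base pairs made by CRISPR/Cas9 in the gene of a centriole protein, and the controls were *Cep135*(+/+). The labels give the mutants as Cep135 (-/-). Dorsal telencephalon was taken at E11.5 (mutants A, B and C, controls D, E and F) and at E14.5 (mutants 1, 2 and 6, controls 3, 4 and 5). Cells from each of the 6 E14.5 cortices were also dissociated and cultured as incipient neurospheres, and RNA was collected after 12 and 24 hours. The deletion is present in all tissues of the mutants, so no cell type was targeted. In the titles mutant A and control D share 1 prefix, the other E11.5 embryos share another and all E14.5 embryos 1 more, while the descriptions of mutants B and C carry a prefix other than that of their titles. No label says what a prefix stands for. By *Xist* and Y-linked transcripts, mutants A, C, 1 and 2 and control E were female. One label of the cortex of mutant 6 gives E11.5, and it was taken as E14.5 from its title and source name.

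Heat shock proteins are molecular chaperones, which bind unfolded or partly folded proteins and keep them from aggregating. In the classical heat shock response, the transcription factor HSF1 is held inactive by chaperones, is released when unfolded proteins draw the chaperones away, and then binds heat shock elements upstream of its targets. HSP70 proteins bind short exposed stretches of a client and release them in a cycle of ATP hydrolysis, which J-domain proteins such as DNAJB1 start and nucleotide exchange factors such as HSPH1 and BAG3 end. HSP90 proteins act later, on nearly folded clients such as kinases and steroid receptors, and small heat shock proteins hold aggregating proteins without ATP. Some of these genes, such as *Hspa8* and *Hsp90ab1*, are expressed in unstressed cells, while *Hspa1a* and *Hspa1b* are the classical inducible HSP70 genes. *Hspe1* encodes HSP10, the lid of the mitochondrial HSP60 chaperonin, so that 1 of the 10 genes is not cytosolic by its product.

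The heat shock element is built from inverted repeats of the 5 letters NGAAN, and the start regions of these genes are shown because they carry the sequence that such genes are known for. Promoter windows of 300 bases, from 250 bases before to 50 after a start site, were taken from RefSeq (GRCm38.p6) and were matched for 7 of the 10 genes. A pair of repeats was searched as GAANNTTC or TTCNNGAA, and a run of 3 repeats as GAANNTTCNNGAA or TTCNNGAANNTTC. The pairs read the same on both strands, the runs were searched on both strands, and matches could overlap. A pair was found in the windows of 6 of the 7 genes, *Hspa1a*, *Hspa1b*, *Hsph1*, *Hspb1*, *Bag3* and *Hspe1*. Over the 32851 windows of 27025 genes, 17% of the genes hold a pair in at least 1 window. A run of 3 was found in *Hsph1* and *Hspe1*, and 0.662% of the 27025 genes hold one. In the sequences below, on the strand of each gene, capitals mark the matches.
Hspa1a, chr17:34972107-34972406, minus strand: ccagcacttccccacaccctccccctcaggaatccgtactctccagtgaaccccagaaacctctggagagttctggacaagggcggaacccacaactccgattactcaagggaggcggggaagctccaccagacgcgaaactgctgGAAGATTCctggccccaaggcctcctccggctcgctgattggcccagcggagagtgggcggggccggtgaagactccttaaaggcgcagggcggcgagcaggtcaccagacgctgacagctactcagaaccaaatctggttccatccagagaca
Hsph1, chr5:149636266-149636565, minus strand: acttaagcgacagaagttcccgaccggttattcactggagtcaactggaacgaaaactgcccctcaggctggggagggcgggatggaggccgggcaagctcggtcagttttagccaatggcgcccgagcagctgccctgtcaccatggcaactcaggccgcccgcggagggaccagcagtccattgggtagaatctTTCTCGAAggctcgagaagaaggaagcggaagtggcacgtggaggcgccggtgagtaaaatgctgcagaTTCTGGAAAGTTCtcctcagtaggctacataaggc
Hspb1, chr5:135887669-135887968, plus strand: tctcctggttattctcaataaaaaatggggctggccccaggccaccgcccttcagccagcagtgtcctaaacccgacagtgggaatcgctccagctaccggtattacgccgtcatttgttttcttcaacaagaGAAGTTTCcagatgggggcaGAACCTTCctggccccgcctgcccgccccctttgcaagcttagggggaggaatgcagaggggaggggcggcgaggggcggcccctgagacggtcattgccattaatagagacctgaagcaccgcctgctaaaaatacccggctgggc
Bag3, chr7:128523333-128523632, plus strand: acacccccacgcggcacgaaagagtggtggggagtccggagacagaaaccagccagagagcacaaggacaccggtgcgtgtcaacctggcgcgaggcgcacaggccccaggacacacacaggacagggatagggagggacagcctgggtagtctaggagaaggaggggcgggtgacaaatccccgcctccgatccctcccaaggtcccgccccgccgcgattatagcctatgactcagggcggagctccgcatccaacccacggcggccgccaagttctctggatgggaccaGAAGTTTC
Hspe1, chr1:55087898-55088197, plus strand: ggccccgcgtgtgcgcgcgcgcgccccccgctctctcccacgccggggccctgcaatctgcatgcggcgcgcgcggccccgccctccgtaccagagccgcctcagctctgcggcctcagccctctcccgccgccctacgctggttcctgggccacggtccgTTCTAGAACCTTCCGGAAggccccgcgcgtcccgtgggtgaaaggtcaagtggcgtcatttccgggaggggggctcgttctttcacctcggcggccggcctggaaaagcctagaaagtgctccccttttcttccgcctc
In *Hspa1a* the match began 104 bases before the start site, and the window of *Hspa1b* (chr17:34959189-34959488, minus strand) was identical at 296 of 300 positions. In *Hspb1* the matches began 117 and 97 bases before the start, and in *Bag3* the match began at base 43 of the transcript. In *Hsph1* a first match began 54 bases before the start and the run of 3 at base 16. The window of *Hspe1* overlaps that of *Hspd1*, which encodes HSP60, the chaperonin that HSP10 closes. The genes lie head to head, and the overlapping matches that began 89, 84 and 79 bases before the start of *Hspe1* stand in both windows. Both RefSeq windows of *Dnajb1* held no match, which says only that these letters are not in those windows.

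Libraries were primed at the polyA tail and read from the 3′ end, so that counts reflect transcript abundance independently of transcript length. The authors divided each library's counts by 1 size factor, and the results are called normalized read counts. Reads on genes numbered 4732781 to 11645213 per library. *Gm42418*, which contains ribosomal RNA sequence, took 6.11% to 34.8% of the normalized counts. At 24 hours the mutant libraries were deeper (7903426 to 11645213 reads) than the control libraries (4732781 to 5709443 reads), and *Gm42418* took 20.5% to 23.05% of counts in mutants and 6.26% to 13.9% in controls. The log2 fold change of *Cep135* itself lay between -0.15 and 0.15 in the 4 conditions, and reads at the 3′ end do not test a deletion near the start of the gene. Markers of the cortex were present in every library, with summed counts of at least 8214 for 8 apical progenitor genes, 1428 for 6 intermediate progenitor genes and 10044 for 9 neuron genes.

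In the GENCODE annotation of GRCm38 the 10 genes lie on 7 chromosomes. *Hspa1a* (chr17:34969190-34972156) and *Hspa1b* (chr17:34956436-34959238) lie side by side on the minus strand, and *Hsp90ab1* (chr17:45567775-45573271, minus strand) is on the same chromosome. *Hsph1* (chr5:149614287-149636376, minus strand) and *Hspb1* (chr5:135887919-135889563, plus strand) share another. *Dnajb1* lies at chr8:83608193-83612653, *Hspa8* at chr9:40800984-40810087, *Bag3* at chr7:128523616-128546981 and *Hspe1* at chr1:55088132-55091307, all on the plus strand, and *Hsp90aa1* at chr12:110690605-110702728 on the minus strand. Because reads come from the 3′ end, the last 400 bases of a transcript of each gene were cut into words of 50 bases. Of these words 76.6% in *Hspa8*, 59.8% in *Hspe1*, 19.7% in *Hspb1* and 9.97% in *Hsp90ab1* also occur in other annotated genes, and 0 in the other 6 genes. The counts of *Hspa8* and *Hspe1* are therefore less certain.

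The heat shock genes spanned a wide range of levels over the 24 libraries. *Hsp90ab1*, the constitutive HSP90, ranged from 23361 to 55801 normalized read counts. *Hsp90aa1*, the inducible HSP90, ranged from 5486 to 11434. *Hspa8*, which encodes the constitutive HSC70, ranged from 2321 to 4228. *Hspe1* ranged from 1008 to 2035, *Hsph1* from 673 to 1069 and *Dnajb1* from 236 to 474. The small heat shock protein gene *Hspb1* ranged from 41.3 to 194 and *Bag3* from 18.9 to 148. These 8 genes were tested in each comparison, for which a mean of at least 10 normalized read counts was required.

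*Hspa1a* and *Hspa1b* stood near the limit of detection in all libraries. In the 23 libraries whose whole reads were used, all but E11.5 control D, *Hspa1a* had 1 to 22 reads, while *Hspb1*, also low, had 33 to 300. *Hspa1b* had 0 to 17 reads. The single 0 of *Hspa1a*, in E11.5 control D, allows up to 3.02 normalized counts, and the 2 zeros of *Hspa1b*, in E14.5 mutant 1 and 12-hour control 3, allow up to 3.39 and 4.72. These limits take 3 reads and cover counting error only. In E14.5 cortex *Hspa1a* was 4.52, 4.42 and 6.26 in mutants 1, 2 and 6, compared with 1.18, 2.18 and 1.74 in controls 3, 4 and 5. These groups did not overlap, but the values rest on 4, 4 and 8 reads in mutants and 1, 3 and 2 in controls. The exact permutation p was 0.1, the smallest possible. *Hspa1b* stood at 0, 1.104 and 2.35 in these mutants and at 3.53, 1.45 and 0.872 in the controls, which overlapped (exact permutation p = 0.5). In E11.5 cortex *Hspa1a* stood at 5.81, 7.81 and 1.44 for the mutants (A, B, C) against 0, 3.35 and 0.777 for the controls (D, E, F), with overlap (exact permutation p = 0.2). There *Hspa1b* was 9.68, 2.23 and 3.61 in mutants and 6.05, 4.18 and 1.55 in controls (exact permutation p = 0.8). By genotype over both ages the exact permutation p was 0.02 for *Hspa1a*, which was higher in mutants, and 0.765 for *Hspa1b*. With age it was 0.465 for *Hspa1a* and 0.03 for *Hspa1b*, which was lower at E14.5. These exact permutation p-values were not adjusted for the number of tests.

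In culture at 12 hours *Hspa1a* reached 23.6 in control 3 and 19.7 in mutant 6, with 2.35, 3.04, 5.85 and 6.31 in the other libraries. At 24 hours it was 8.19, 20.2 and 6.25 in controls and 5.02, 5.06 and 13.1 in mutants. *Hspa1a* was higher in culture than in the cortex of the same embryo in 6 of 6 embryos at 12 hours and at 24 hours (exact permutation test by sign flips, two-sided, p = 0.03125 for each, the smallest p that 6 embryos allow). In control 4 at 12 hours and in mutants 1 and 2 at 24 hours the difference from cortex was under 1 normalized count. *Hspa1b*, the neighbouring gene, was 0, 2.35 and 9.87 in controls and 7.80, 2.10 and 15.2 in mutants at 12 hours, and 1.37, 5.06 and 5.001 in controls and 9.32, 6.07 and 1.75 in mutants at 24 hours. It was above the cortex of the same embryo in 5 of 6 embryos at 12 hours and in 4 of 6 at 24 hours (exact permutation p = 0.1562 and 0.125). Between 12 and 24 hours the exact permutation p was 0.7812 for *Hspa1a* and 1 for *Hspa1b*. By genotype it was 0.6 and 0.5 at 12 hours and 0.5 for both genes at 24 hours. *Hspa1a* passed the filter on low values only in the comparison of genotypes at 12 hours, where its log2 fold change was 0.55 (SE 1.19, limma adjusted p = 0.959).

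**Figure D1:**
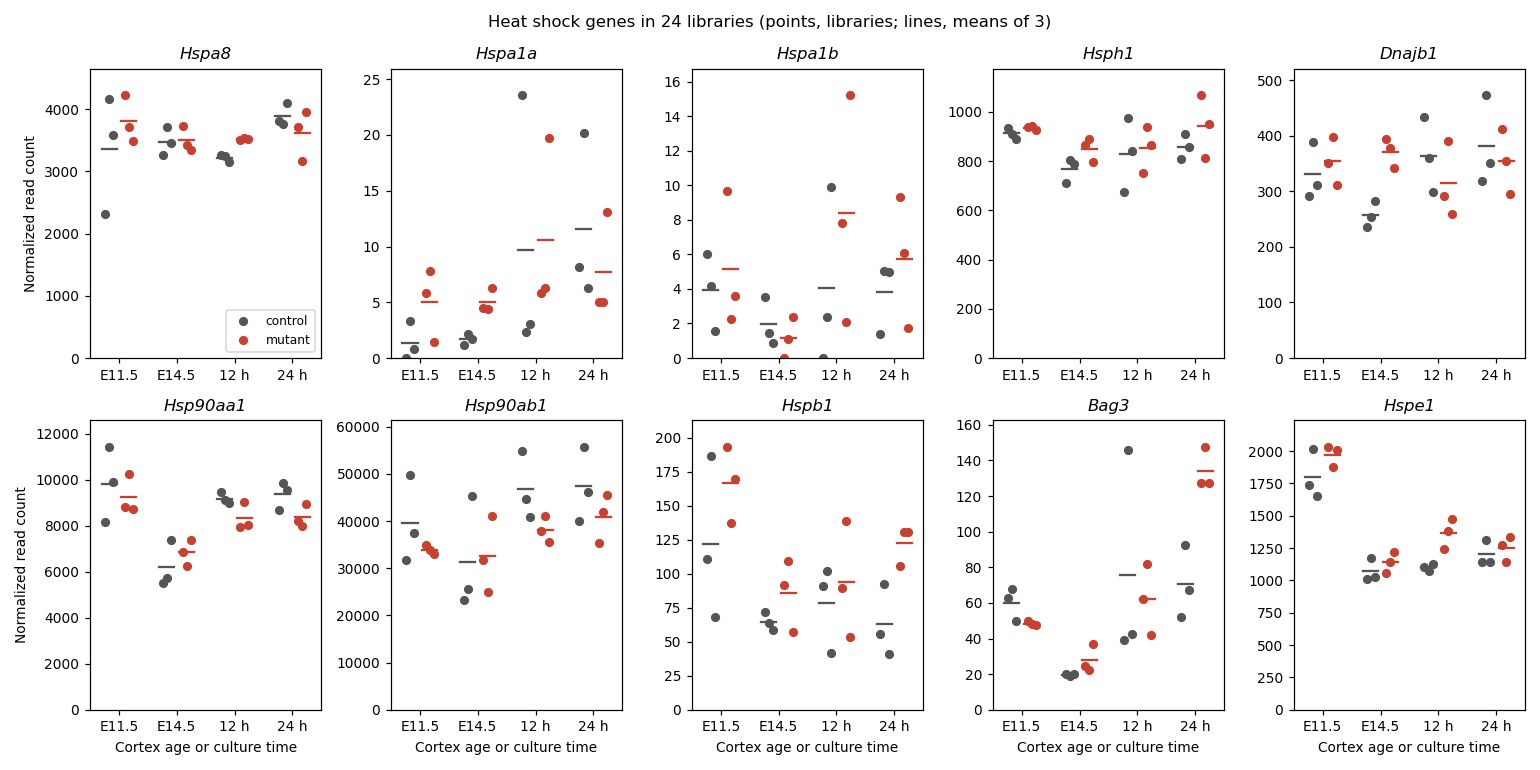
Normalized read counts (y axes, linear, from 0) of the 10 heat shock genes in 24 libraries, by cortex age or culture time (x axes), with control libraries in grey, mutant libraries in red and the mean of 3 libraries as a line. *Bag3* sits between 18.9 and 36.8 in E14.5 cortex and between 51.9 and 148 after 24 hours of culture, while *Hspa8* stays between 2321 and 4228 throughout.

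The first comparison set mutants against controls, and asked whether the heat shock genes differ when *Cep135* is lost. By the test used, limma on log2(normalized read count + 1) with Benjamini-Hochberg adjustment over all genes tested and a threshold of 0.05, 0 of the heat shock genes differed between mutants and controls in E11.5 cortex, E14.5 cortex, 12-hour cultures or 24-hour cultures, or across all 12 cortices in a fit that included age. The smallest p-values were those of *Dnajb1* in E14.5 cortex and of *Bag3* and *Hspb1* after 24 hours, all higher in mutants, without overlap between the groups, and short of the adjusted threshold. In the 4 conditions the log2 fold changes of the constitutive *Hspa8* lay between -0.11 and 0.22 and those of *Hsp90ab1* between -0.29 and 0.09. The p-values measure the spread between these embryos, and with 3 embryos in each group an exact permutation test cannot give less than 0.1.

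In E11.5 cortex no heat shock gene was separated by genotype in the test. At an adjusted p under 0.05, 0 of 8 genes passed, against 0.0149% of 13406 genes tested. At an unadjusted p under 0.05, 0 of 8 passed, against 991 of these 13406. Groups did not overlap in 1 of the 8 genes, *Bag3*, against 13.3% of all genes tested. *Bag3*, which links HSP70 and small heat shock proteins to selective autophagy, stood at 49.7, 48.0 and 47.6 in the mutants (A, B, C), against 62.5, 67.7 and 49.7 in the controls (D, E, F). Mutant A (49.67) and control F (49.74) were nearly equal, and the log2 fold change of -0.29 (SE 0.20, 95% interval -0.74 to 0.15) had a limma adjusted p of 0.743. A block for the title prefix could not change this value, because each prefix holds as many E11.5 mutants as controls. *Hspb1*, whose product HSP25 binds aggregating proteins, stood at 194, 137 and 169 in mutants, against 111, 186 and 68.4 in controls, and these groups overlapped. Of 10 liver markers, 7 had a mean of at least 10 in E11.5 mutants and 2 in controls, where *Alb*, *Serpina1e*, *Serpina1a* and *Fgb* were at 0, and their part in the levels of the heat shock genes was not tested.

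In E14.5 cortex *Dnajb1*, the J-domain protein that starts the HSP70 cycle, was the gene with the smallest p. Its normalized read counts were 394, 378 and 341 in mutants 1, 2 and 6, compared with 236, 254 and 283 in controls 3, 4 and 5. Every mutant was above every control, with a log2 fold change of 0.52 (SE 0.14, 95% interval 0.22 to 0.83, a fold of 1.44). The unadjusted limma p was 0.00318 and the adjusted p 0.367, and the exact permutation p was 0.1, the smallest possible. *Bag3* stood at 24.8, 22.1 and 36.8 in mutants, against 19.999, 18.9 and 20.05 in controls, also without overlap, with mutant 6 the highest and a log2 fold change of 0.45 (SE 0.31, limma adjusted p = 0.667). Groups did not overlap in these 2 of 8 genes, against 13.7% of all genes tested, and 0 of 8 genes passed the adjusted threshold by limma, edgeR or DESeq2, against 0.0736% of all genes by limma. At an unadjusted p under 0.05 each of the 3 tools counted 1 gene, beside 1236 of all 13583 genes tested by limma. All 8 log2 fold changes were positive, with a median of 0.15 beside 0.01 over all genes tested, of which 7027 of 13583 were positive. That of *Hspa8* was 0.01. Under alternative fits it changed sign in 7, that of *Hsp90ab1* in 3 and that of *Hspb1* in 1. The E14.5 controls were all male and mutants 1 and 2 female, and with embryo sex as a term *Dnajb1* had a log2 fold change of 0.41 (limma adjusted p = 0.740) and *Hspb1* one of -0.17 in place of 0.36. With that term *Bag3* had 0.87 in place of 0.45 (limma adjusted p = 0.748) and *Hsp90ab1* 0.45 in place of 0.09 (limma adjusted p = 0.769). The 9 neuron markers summed to 36279 to 38159 in E14.5 mutants and 44798 to 48467 in controls, and the 8 microglial markers to 810 to 986 and 431 to 492. The 10 liver markers summed to 740 to 7399 in E14.5 mutants, where 2 had a mean of at least 10 and *Alb*, *Serpina1e*, *Serpina1a* and *Fgb* were at 0, against 4089 to 6131 in controls, where 9 did and *Afp* was at 0. These sums include *Ttr*, also on the list for choroid plexus and hem, whose mean log2 value over the E14.5 cortices was 11.83. The 7 markers of choroid plexus and hem summed to 1406 to 8082 in E14.5 mutants and 3654 to 5610 in controls. Of the 7 liver markers tested, all 7 had negative log2 fold changes, with a median of -3.36, and 6 an unadjusted p under 0.05, but 0 passed in limma after adjustment. The part of all these cells in the level of *Dnajb1* was not tested.

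Over both ages together, 0 of 8 genes passed in limma (0.139% of all genes did). *Dnajb1* was higher in mutants by 0.31 on the log2 scale (SE 0.11, limma adjusted p = 0.433, exact permutation p = 0.03 with labels permuted within age). *Hspb1* was higher by 0.46 (SE 0.21, limma adjusted p = 0.560, exact permutation p = 0.095). *Hsph1* had a log2 fold change of 0.09 (SE 0.07, limma adjusted p = 0.739, exact permutation p = 0.035), and the exact permutation p of the other 5 tested genes was 0.11 to 0.77. At E11.5 alone *Dnajb1* was 351, 398 and 312 in mutants, compared with 291, 388 and 312 in controls, which overlapped. The difference of the genotype effect between ages passed the threshold in 0 of 8 genes and in 0% of all genes tested in limma. The nearest were *Bag3*, with a difference of 0.75 (SE 0.34, unadjusted p = 0.0424, limma adjusted p = 0.620), and *Dnajb1*, with 0.42 (SE 0.20, limma adjusted p = 0.620).

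In 12-hour cultures the heat shock genes of mutants and controls were again not separated by the test. In limma 0 of 9 genes and 0% of all 13389 genes tested passed. At an unadjusted p under 0.05 there were 0 of the 9, against 650 of all genes tested. By edgeR and DESeq2 0 passed too, with 2 and 1 at an unadjusted p under 0.05. Groups did not overlap in 2 genes, *Hspe1* and *Hspa8*, against 11.0% of all genes tested. *Hspe1* reached 1244, 1382 and 1478 in mutant cultures 1, 2 and 6, against 1101, 1077 and 1124 in control cultures 3, 4 and 5, a log2 fold change of 0.31 (SE 0.14, limma adjusted p = 0.914). *Hspa8* was 3509, 3540 and 3526 in mutants, compared with 3266, 3250 and 3143 in controls, a log2 fold change of 0.13 (SE 0.12, limma adjusted p = 0.916). *Dnajb1*, higher in mutants in the E14.5 cortices of the same embryos, was 292, 391 and 260 in mutant cultures and 434, 360 and 298 in control cultures. Its genotype effect in 12-hour cultures was lower than in cortex by 0.74 on the log2 scale (SE 0.26, unadjusted p = 0.0129), with a limma adjusted p of 0.793, and in 24-hour cultures it was lower by 0.62 (SE 0.24, limma adjusted p = 0.786). *Bag3* was 62.4, 82.1 and 42.1 in mutants, compared with 39.3, 146 and 42.5 in controls, so that control 4 was above all other libraries of that time.

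In 24-hour cultures *Bag3* and *Hspb1* stood higher in the mutants. *Bag3* was 128, 148 and 127 in mutants 1, 2 and 6, compared with 51.9, 92.7 and 67.5 in controls 3, 4 and 5. Mutants exceeded controls by a log2 fold change of 0.95 (SE 0.25, 95% interval 0.41 to 1.49, a fold of 1.93), with an unadjusted limma p of 0.00201 and an adjusted p of 0.139. *Hspb1* stood at 106, 131 and 131 in mutants, against 56.0, 92.7 and 41.3 in controls, a log2 fold change of 1.01 (SE 0.29, 95% interval 0.39 to 1.64, a fold of 2.02), with an unadjusted limma p of 0.0036 and an adjusted p of 0.187. In both genes the lowest mutant was above the highest control, and control 4 was the highest control. Groups did not overlap in these 2 of 8 genes, against 16.2% of all genes tested, and 0 of 8 passed the adjusted threshold by limma, edgeR or DESeq2, against 0.271% of all genes by limma. At an unadjusted p under 0.05 each of these tools counted 2, beside 1414 of all 13300 genes tested by limma. The other 6 genes had log2 fold changes from -0.21 in *Hsp90ab1* to 0.13 in *Hsph1*, and the median of the 8 was -0.02 beside -0.01 over all genes tested.

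Other measures moved with genotype at 24 hours. With the share of *Gm42418* as a term the log2 fold change was 0.53 for *Bag3* (limma adjusted p = 0.941) and -0.09 for *Hspb1* (limma adjusted p = 0.987). That share did not overlap between the genotypes at 24 hours, so the share and the genotype cannot be told apart there. The summed counts of 7 markers of choroid plexus and hem were 5669 to 17297 in mutants and 1922 to 4558 in controls. A mean of at least 10 was reached by 6 and 5 of the 7. These markers did not all move one way: limma called *Ttr* (2.35) and *Clic6* (2.74) higher in mutants and *Rspo3* (-0.915, limma adjusted p = 0.015) lower. The 10 liver markers summed to 5213 to 16630 in mutants and 775 to 3536 in controls, where *Afp*, *Serpina1e*, *Serpina1a*, *Fgb* and *Ahsg* were at 0. They share *Ttr* with the choroid plexus list, so the 2 sums are not separate. The mean log2 value of *Ttr* was 13.01 in mutants and 10.66 in controls, against 5.32 and 0.475 for *Alb* and 5.655 and 0 for *Serpina1e*. The 9 neuron markers summed to 35668 to 42557 in mutants and 45129 to 50486 in controls, and the 8 apical progenitor markers to 12079 to 13277 and 9389 to 10593. The part of these cells in the levels of *Bag3* and *Hspb1* was not tested, and in bulk samples fewer cells of a type and less RNA per cell cannot be told apart. The genotype effect did not differ between 24 and 12 hours past the threshold in any of the 8 genes (*Bag3* 1.01, SE 0.60, limma adjusted p = 1; 0 genes at an unadjusted p under 0.05).

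**Figure D2:**
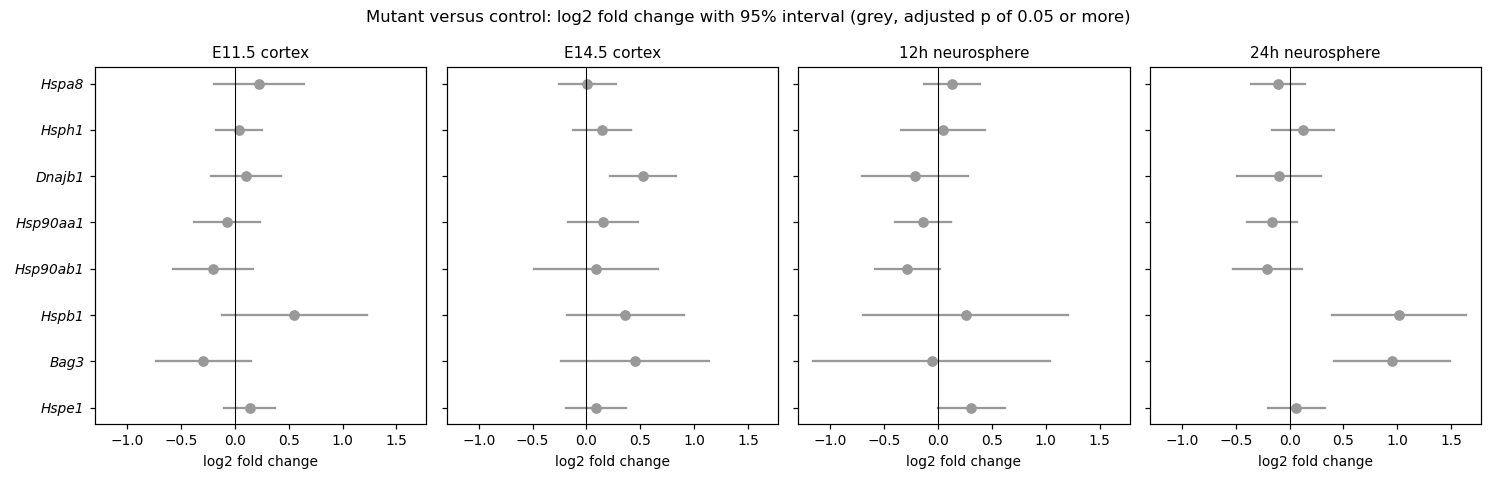
Log2 fold change of mutants against controls (x axes, log2 scale) for the 8 heat shock genes tested in all 4 conditions, with the limma estimate as a point and its 95% interval as a line. All points are grey because no adjusted p is under 0.05, and the intervals of *Dnajb1* at E14.5 (0.22 to 0.83) and of *Bag3* and *Hspb1* at 24 hours (from 0.41 and 0.39) lie above 0.

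The second question was how these genes changed with age in the cortex. From E11.5 to E14.5, 5 of the 8 genes fell and 0 rose: *Bag3*, *Hspb1*, *Hspe1*, *Hsp90aa1* and *Hsph1*. The median log2 fold change of the 8 genes was -0.39 beside -0.08 over all genes tested. Among all 13650 genes tested, 29.3% were called lower and 23.8% higher at E14.5, so that a change with age was common in the table. The E14.5 embryos share 1 title prefix that no E11.5 embryo has, so that age and whatever the prefix stands for cannot be told apart.

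*Bag3* had the largest fall. It was 62.5, 67.7 and 49.7 in E11.5 controls and 19.999, 18.9 and 20.05 in E14.5 controls, and 49.7, 48.0 and 47.6 in E11.5 mutants and 24.8, 22.1 and 36.8 in E14.5 mutants. Every E14.5 cortex was below every E11.5 cortex, with a log2 fold change of -1.18 (SE 0.19, a fold of 0.442, limma adjusted p = 7.02e-05, exact permutation p = 0.005, the smallest possible). Within controls it was -1.55 and within mutants -0.81, and this difference is the interaction given above, which did not pass.

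*Hspe1* and *Hspd1*, the mitochondrial pair that shares a start region, both fell. *Hspe1* was 1736, 2013 and 1652 in E11.5 controls and 2035, 1875 and 2008 in E11.5 mutants. At E14.5 it was 1008, 1177 and 1030 in controls and 1058, 1139 and 1222 in mutants. The groups did not overlap, and the log2 fold change was -0.77 (SE 0.08, limma adjusted p = 4.98e-07, exact permutation p = 0.005). *Hspd1*, which was named because of the shared region and after its values were seen, had a log2 fold change of -0.79 (SE 0.08, limma adjusted p = 8.16e-07).

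*Hsp90aa1* was 8143, 11434 and 9880 in E11.5 controls and 8817, 10228 and 8740 in E11.5 mutants. At E14.5 it was 5486, 5721 and 7388 in controls and 6853, 6252 and 7394 in mutants, all below the E11.5 cortices. It had a log2 fold change of -0.55 (SE 0.11, limma adjusted p = 0.000382). *Hsp90ab1*, the constitutive HSP90, had a log2 fold change of -0.23 (SE 0.17, 95% interval -0.59 to 0.13, limma adjusted p = 0.272), and E14.5 control 5 and mutant 6, at 45362 and 41126, were above 5 of the 6 E11.5 cortices. *Hspb1* was 68.4 to 194 in E11.5 cortex and 57.2 to 109 in E14.5 cortex, which overlapped, with a log2 fold change of -0.89 (SE 0.21, limma adjusted p = 0.00212). *Hsph1*, an HSP110 protein that exchanges the nucleotide of HSP70, had the smallest fall, from 892 to 944 at E11.5 to 711 to 890 at E14.5, with a log2 fold change of -0.20 (SE 0.07, limma adjusted p = 0.0266). This call was lost with median-of-ratios size factors (-0.14, limma adjusted p = 0.0933), though not with TMM size factors. It was also lost without E14.5 control 3 or E11.5 control D. *Hspa8* (-0.01, 95% interval -0.27 to 0.24) and *Dnajb1* (-0.14, 95% interval -0.37 to 0.10) did not pass.

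In *Bag3*, *Hspe1*, *Hsp90aa1* and *Hsph1*, 4 of the 8 genes, the E14.5 libraries were below the E11.5 libraries without overlap in each genotype, against 18.0% of all genes tested. Markers of cell types differed between the ages as well. The 9 neuron markers summed to 10044 to 14986 at E11.5 and 36279 to 48467 at E14.5. The 8 apical progenitor markers summed to 14385 to 18131 at E11.5 and 9449 to 11292 at E14.5, but did not move as a set. In limma *Vim* (-0.97) and *Nes* (-0.87) were called lower at E14.5, and *Slc1a3* (1.46) and *Fabp7* (0.74) higher. The part of these cells in the fall of the heat shock genes was not tested.

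The third question was what dissociation and culture did to these genes. After 12 hours 2 of 8 genes were higher than in the E14.5 cortex of the same embryos, *Bag3* and *Hsp90aa1*, and after 24 hours 3 were, with *Hsp90ab1* added. No gene of the 8 was lower at either time. Among all genes tested, 14.1% were higher and 16.1% lower at 12 hours, and 20.1% were higher and 21.5% lower at 24 hours. *Hspa8*, *Hspe1*, *Hsph1*, *Dnajb1* and *Hspb1* did not pass at either time, with log2 fold changes from -0.05 (*Hspa8* at 12 hours) to 0.23 (*Dnajb1* at 24 hours). The 24-hour and 12-hour comparisons share the cortex libraries.

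*Bag3* had the largest rise. In controls 3, 4 and 5 it went from 19.999, 18.9 and 20.05 in cortex to 39.3, 146 and 42.5 at 12 hours and 51.9, 92.7 and 67.5 at 24 hours. In mutants 1, 2 and 6 it went from 24.8, 22.1 and 36.8 to 62.4, 82.1 and 42.1 and then to 128, 148 and 127. It was higher than in cortex in 6 of 6 embryos at both times, and no culture overlapped the cortices. The log2 fold change was 1.37 at 12 hours (SE 0.33, a fold of 2.58, limma adjusted p = 0.00521) and 2.01 at 24 hours (SE 0.20, a fold of 4.02, limma adjusted p = 5.76e-07), with an exact permutation p of 0.03125 at each, the smallest possible. The call at 12 hours was lost with the share of *Gm42418* as a term (0.96, limma adjusted p = 0.162), while that at 24 hours was kept (1.96, limma adjusted p = 1.70e-06). Without any 1 library the value at 12 hours lay between 1.07 and 1.51.

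*Hsp90aa1* rose in every embryo, to similar levels at 12 and 24 hours. From 5486, 5721 and 7388 in control and 6853, 6252 and 7394 in mutant cortices it went to 9445, 9118 and 8970 and to 7948, 9043 and 8020 at 12 hours. At 24 hours it was 8697, 9840 and 9564 in controls and 8200, 7985 and 8923 in mutants. All cultures were above all cortices, with log2 fold changes of 0.43 (SE 0.10, limma adjusted p = 0.0041) at 12 hours and 0.45 (SE 0.10, limma adjusted p = 0.00142) at 24 hours.

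*Hsp90ab1* was less uniform. In controls it went from 23361, 25561 and 45362 in cortex to 54864, 44744 and 40872 at 12 hours, and in mutants from 31855, 24881 and 41126 to 37835, 41160 and 35606. Embryos 5 and 6, the highest in cortex, were lower at 12 hours, and the other 4 were higher. At 24 hours all 6 embryos were above their own cortex, at 40117, 55801 and 46275 in controls and 35261, 41963 and 45615 in mutants, and the groups overlapped. The log2 fold change was 0.44 at 12 hours (SE 0.17, limma adjusted p = 0.0622) and 0.50 at 24 hours (SE 0.17, limma adjusted p = 0.0242). The call at 24 hours was lost without a filter on low values (limma adjusted p = 0.0579) and without any 1 of 4 libraries, namely the E14.5 cortex of mutant 2 (0.43), control 3 (0.40) or control 4 (0.43), or the 24-hour library of control 4 (0.43).

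In *Bag3* and *Hsp90aa1*, 2 of 8 genes, cultures were above cortices without overlap in each genotype, against 8.41% of all genes tested at 12 hours and 11.6% at 24 hours. Between 12 and 24 hours 0 of 8 genes passed in limma, edgeR or DESeq2, and 0 had an unadjusted p under 0.05 in any of these, against 0.292% of all genes by limma. *Bag3* had the largest difference, 0.64 (SE 0.31, limma adjusted p = 0.526), with an increase in 5 of 6 embryos and a fall from 146 to 92.7 in control 4. *Hspb1* had a log2 fold change of 0.22 at 24 hours against cortex (SE 0.21, limma adjusted p = 0.420), with a difference of -0.10 in controls and 0.55 in mutants. This difference between genotypes, 0.65 (SE 0.41), had a limma adjusted p of 0.805. In each interaction of genotype and culture against cortex 0 of 8 genes passed in limma, edgeR or DESeq2. Over all genes limma called 0 in each, and DESeq2 called 5 at 12 hours and 20 at 24 hours. Of the 8 genes *Dnajb1* had the smallest limma p at each time.

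**Figure D3:**
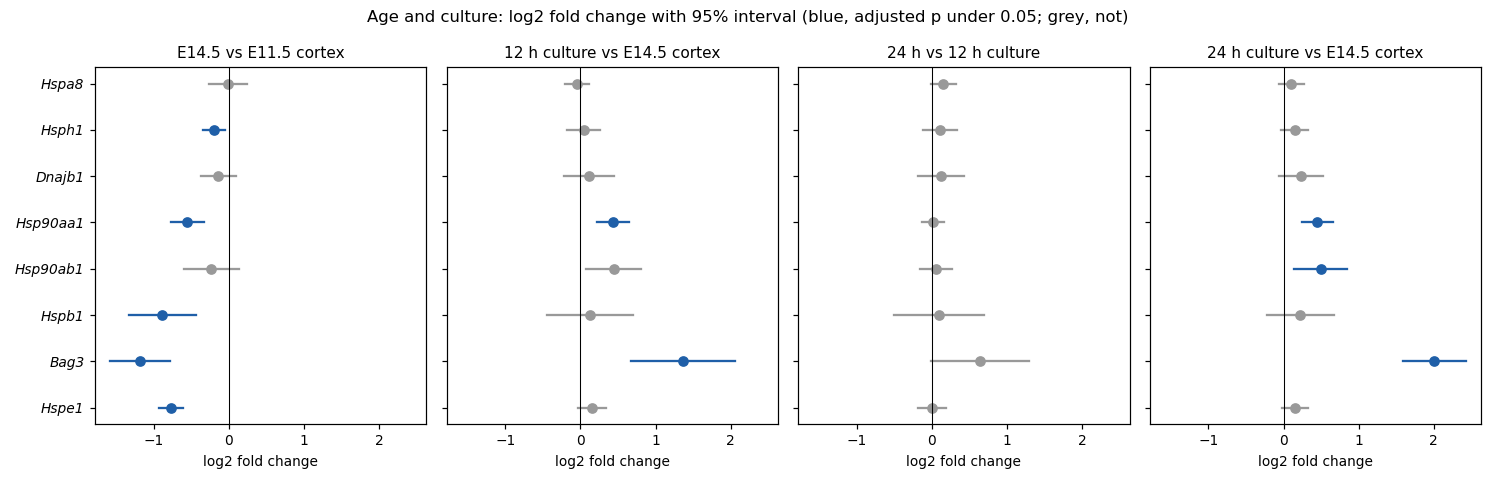
Log2 fold change (x axes, log2 scale) of the 8 heat shock genes with age and with culture, with the limma estimate as a point and its 95% interval as a line, in blue where the adjusted p is under 0.05 and in grey otherwise. With age 5 genes lie below 0 in blue, and in culture *Bag3* reaches 1.37 at 12 hours and 2.01 at 24 hours against cortex.

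**Figure D4:**
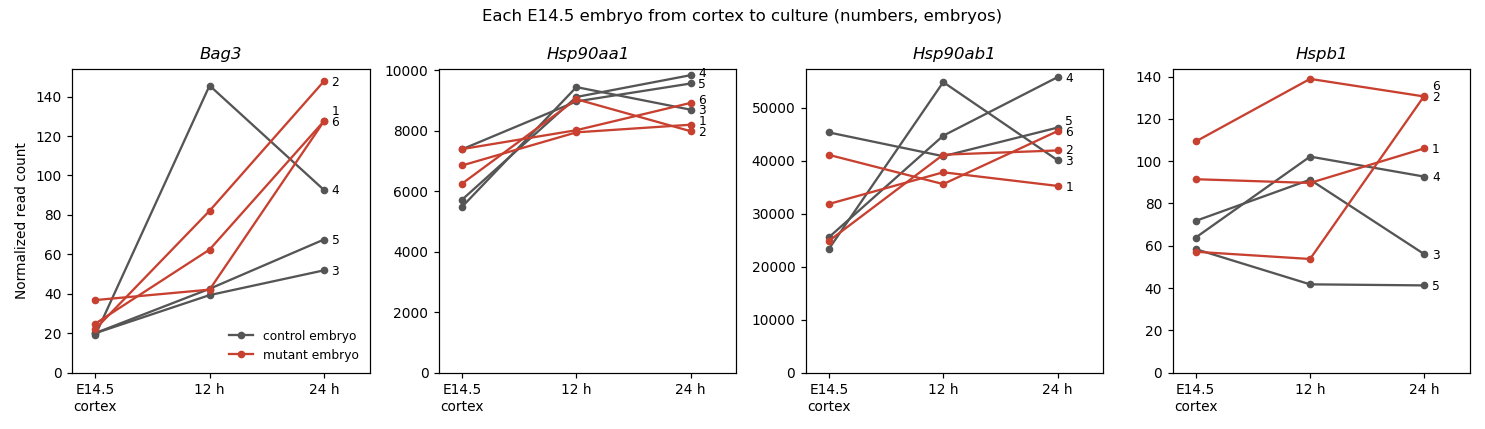
Normalized read counts (y axes, linear, from 0) of *Bag3*, *Hsp90aa1*, *Hsp90ab1* and *Hspb1* in the cortex and the 12-hour and 24-hour cultures of each E14.5 embryo (x axes), with control embryos in grey and mutant embryos in red, each line joining the 3 libraries of 1 embryo. *Bag3* of control 4 reaches 146 at 12 hours and returns to 92.7, and the 3 mutants end between 127 and 148.

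Markers of cell types and immediate early genes also differed between cortex and culture. The 8 endothelial markers summed to 1037 to 1199 in E14.5 cortex and to 25.3 to 125 over both culture times. The 8 microglial markers summed to 431 to 986 in cortex and 6.31 to 62.8 in culture, with *Aif1* at 0 in all 12-hour mutants and *C1qc* at 0 in all 24-hour controls. The 8 meningeal and fibroblast markers summed to 2146 to 3419 in cortex and 156 to 383 in culture. The 8 erythroid markers summed to 38237 to 45332 in cortex, 69413 to 153116 at 12 hours and 45577 to 79400 at 24 hours. The summed counts of 18 immediate early genes, which are induced within minutes by growth factors or tissue handling, were 3578 to 5121 in cortex and 7124 to 10319 in culture. Of these genes 12 were higher and 1 lower at 12 hours, with *Egr1* higher by 5.32 on the log2 scale (SE 0.15, limma adjusted p = 1.13e-12). The part of these changes in the levels of *Bag3* and of the HSP90 genes was not tested.

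Other genes of protein folding and degradation were examined as lists beside the 10 genes. By genotype none passed: in the heat shock factors, the HSP70 and HSP90 cochaperones, the small heat shock proteins, the mitochondrial chaperones, the TRiC chaperonin, the endoplasmic reticulum chaperones and the ubiquitin and proteasome genes, 0 genes passed in limma in any of the 4 conditions or over the 12 cortices. Of 100 to 102 such genes tested, 7 at E14.5 and 4 at E11.5 had an unadjusted p under 0.05. Among all genes tested 1236 of 13583 and 991 of 13406 did. At 24 hours 11 did and at 12 hours 3, beside 1414 of 13300 and 650 of 13389 among all genes. EdgeR and DESeq2 were counted for the heat shock genes only. *Hsf1*, which encodes the main heat shock factor, had log2 fold changes between -0.22 (in 12-hour cultures) and 0.41 (in 24-hour cultures), with SE from 0.18 to 0.40. *Hsf2*, a related factor, lay between -0.20 and 0.04.

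The same lists were counted with age, where 29.3% of all genes tested fell and 23.8% rose. Of 34 cochaperones 13 fell and 2 rose, with a median of -0.14 beside -0.08 over all genes tested. Among them *Ptges3*, the HSP90 cochaperone p23, fell by 0.64 (SE 0.08, limma adjusted p = 3.95e-06) and *Fkbp4*, which joins HSP90 to steroid receptors, by 0.55 (SE 0.08, limma adjusted p = 1.48e-05). Of the 8 subunits of TRiC, the cytosolic chaperonin that folds actin and tubulin, 6 fell and 0 rose, with a median of -0.39. Of 15 endoplasmic reticulum chaperones 10 fell and 1 rose, with a median of -0.44, and *Hspa5*, the HSP70 of that compartment, fell by 0.58 (SE 0.08, limma adjusted p = 1.12e-05). Of 10 mitochondrial chaperones and proteases 4 fell, with a median of -0.22, and of 28 ubiquitin and proteasome genes 10 fell and 1 rose, with a median of -0.20. Of the 3 small heat shock protein genes tested besides *Hspb1*, *Hspb6* rose by 0.46 (SE 0.18, limma adjusted p = 0.0408), and 0 of the 3 heat shock factor genes tested passed.

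In culture the lists were read beside all genes tested, of which 14.1% rose and 16.1% fell at 12 hours and 20.1% rose and 21.5% fell at 24 hours. Of 34 cochaperones 2 rose and 1 fell at 12 hours and 7 rose and 1 fell at 24 hours, with medians of 0.04 and 0.07 beside -0.06 and -0.05 over all genes tested. *Hspa4*, an HSP110 protein like HSPH1, rose by 0.49 (SE 0.12, limma adjusted p = 0.00633) at 12 hours and by 0.54 (SE 0.12, limma adjusted p = 0.0017) at 24 hours. Of the 10 mitochondrial genes 2 rose at each time, *Hspd1* and *Hspa9*, which encodes the mitochondrial HSP70. *Hspd1* rose by 0.56 (SE 0.09, limma adjusted p = 0.000345) at 12 hours and by 0.67 (SE 0.09, limma adjusted p = 1.66e-05) at 24 hours. *Hspe1*, on the other side of their shared start region, had log2 fold changes of 0.15 at each time (limma adjusted p = 0.206 and 0.145), and the difference between the 2 genes was not tested. Of the 8 TRiC subunits 2 rose at each time and 0 fell. Of the 28 ubiquitin and proteasome genes 4 rose at 12 hours and 6 at 24 hours, and 0 fell. Of the 15 endoplasmic reticulum chaperones 1 rose and 3 fell at 12 hours and 1 rose and 2 fell at 24 hours, where *Serpinh1*, the collagen chaperone HSP47, had a log2 fold change of -2.13 (SE 0.30, limma adjusted p = 2.76e-05) beside the lower meningeal and fibroblast markers given above. The 3 heat shock factor genes and the small heat shock protein genes tested had 0 calls at either time.

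Genes whose windows hold a run of 3 repeats were counted in the same way. Of 133 such genes in the table, 56 were tested with age, and 19 fell and 13 rose, beside 29.3% and 23.8% of all genes, with *Hsph1* and *Hspe1* among those that fell. At 12 hours 9 of 53 were higher and 10 lower than in cortex, and at 24 hours 13 of 55 were higher and 11 lower, beside the shares of all genes given above. By genotype 0 passed in limma in any condition. Of 52 to 56 tested, 2 to 5 had an unadjusted p under 0.05, beside the counts over all genes given above.

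Over the 24 libraries the 8 tested heat shock genes had modest pairwise correlations. Pearson's r between pairs of genes, on the log2 scale, ran from -0.01 (*Hsp90ab1* and *Hspb1*) to 0.75 (*Hsp90aa1* and *Hsp90ab1*), with a median of 0.35 over 28 pairs. After the mean of each group was subtracted it ran from -0.14 to 0.86, again with both HSP90 genes at the top, and the median was 0.25. Libraries of a group share age and culture, and 18 of the 24 libraries come from 6 embryos. The genes whose levels were most like the average of the standardized heat shock genes, among 9653 other genes with a mean of at least 50, were *Canx* (r = 0.86), *Cdv3* (0.85), *Papola* (0.85), *Dkc1* (0.85) and *Knop1* (0.85). With group means subtracted they were *Ripk1* (0.89), *Kcna6* (0.86), *Mepce* (0.84), *Lrrfip2* (0.81) and *Cachd1* (0.80). *Canx*, an endoplasmic reticulum lectin chaperone, was the only gene of these 10 that is also on one of the chaperone lists.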

How the data were processed

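RNA was measured in 24 libraries. Per the labels, libraries were made with the QuantSeq 3′ FWD kit. The authors aligned reads to GRCm38 with TopHat2 (2.0.10), which used Bowtie (1.0.0), handled alignments with SAMtools (0.1.19), counted reads per GENCODE gene by strand with HTSeq-count (0.6.1) and named DESeq2 for their tests. The authors deposited 1 table of signal, read counts divided by 1 size factor per library, in which all 24 columns matched a sample and 0 did not. Such values are not counts, so the test was limma (version 3.58.1 under R 4.3.3), allowing for a mean-variance trend, on log2(value + 1). Genes entered when they averaged 10 or more over the libraries of a comparison, p-values were adjusted by Benjamini and Hochberg's method, and 0.05 was the threshold. A fold change on this scale understates the change of low genes. Within 1e-06 of a read, 100.0% of the values were whole multiples of the smallest one of their library. Whole reads recovered in this way served edgeR (4.0.16, quasi-likelihood) and DESeq2 (1.42.0) as alternatives, except in comparisons with E11.5 control D, where 1 read is worth nearly 1. Single genes also had exact permutation tests, two-sided, with 20 arrangements for 3 against 3 embryos, 400 for the cortices and 64 sign flips for 6 embryos. Their p-values were not adjusted for the number of genes or comparisons.

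The 8 heat shock genes that passed the filter were tested in every comparison by limma, and *Hspa1a* and *Hspa1b*, which did not pass except *Hspa1a* by genotype at 12 hours, by exact permutation tests. From every other list, at most 2 genes that rose and 2 that fell, those of smallest p among the genes called, could be named. The 5 genes most like the average heat shock gene by Pearson's r, with and without group means, are named, and *Hspd1*, *Hsf1* and *Hsf2* besides. The genes, lists and tests were chosen with earlier results of these data known. Alternatives were other pseudocounts, filters, size factors and tools, all libraries in one fit, terms for *Gm42418*, sex, title prefix or embryo, and each library left out. Libraries of 1 embryo are paired by the labels, which give the same animal, and over 9661 genes the deviations of 18 such pairs from their group means had correlations of -0.216 to 0.417, with a median of 0.19. Scripts were tested on simulated data.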

Additional observations from a re-analysis of the deposited data

Results flagged for a closer look

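*Bag3* had genotype groups that did not overlap in opposite directions. Each E11.5 mutant was below each control, by less than 1 read for the nearest pair, and each E14.5 mutant was above each control. The log2 fold change at E14.5 exceeded that at E11.5 by 0.75, and the interaction did not pass after adjustment (limma adjusted p = 0.620). In 24-hour cultures each mutant was above each control, and the log2 fold change exceeded that of E11.5 cortex by 1.24. That difference between culture and a cortex of other embryos was not tested.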

How the results depend on the processing

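The number of heat shock genes past the threshold was recomputed under 268 alternatives, counting each library left out. It moved by more than 1.5 times in 2, both for 12-hour cultures against cortex, where 2 genes became 1 with a mean of at least 50, under which *Bag3* was not tested, and 1 with the share of *Gm42418* as a term, where the cause was not tested. By genotype it was 0 under all alternatives run. With age it was 4 to 5, and at 24 hours against cortex 2 to 3. With embryo as a replicate block the counts were 2 at 12 hours and 3 at 24 hours against cortex and 0 between the culture times, and the block changed no call of a single gene. Of 2152 single values, 11 lost and 5 gained a call, and 102, none of them a call, changed sign. *Hsp90ab1* gained its call at 12 hours with DESeq2 (0.41, adjusted p = 0.0468), with all 24 libraries in one fit (0.44, limma adjusted p = 0.0276) and without E14.5 control 5, E14.5 mutant 6 or 12-hour mutant 6 (0.49 to 0.55). *Hsph1* lost its call with age also without a filter and with all 24 libraries in one fit (limma adjusted p = 0.0718 and 0.0823).

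Over all genes, calls by genotype rose from 10 to 64 at E14.5, from 0 to 9 at 12 hours and from 36 to 182 at 24 hours with DESeq2, and calls between the culture times from 39 to 160. A term for embryo sex gave 182 genes by genotype at 12 hours, and a term for the share of *Gm42418* gave 0 at 24 hours. EdgeR and DESeq2 were not run for comparisons that hold E11.5 control D. Depth limits *Hspa1a* and *Hspa1b*, and 3 embryos per group limit the rest.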
